A study of Mus musculus with 8 samples.

Results

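The Gimap genes (GTPases of the immunity-associated protein family) were followed through 8 RNA sequencing libraries of sorted mouse spleen CD4+ T cells. The members were the rows of the deposited expression table whose symbol was Gimap1, Gimap3, Gimap4, Gimap5, Gimap6, Gimap7, Gimap8 or Gimap9, and all 8 were found among the 24016 genes of the table. The monoclonal libraries came from NOD.TCRab.FoxP3GFP.Rag-/- mice, with 1 αβ T cell receptor for all T cells, a green fluorescent protein (GFP) reporter of Foxp3 and a homozygous loss of Rag, the recombinase that assembles receptors. The polyclonal libraries came from NOD.FoxP3GFP mice, called WT in the labels, which share the NOD background and the reporter. GFP-positive cells were called Treg and GFP-negative cells non-Treg, which gave Treg and non-Treg groups of 2 libraries each (replicates A and B) from monoclonal and from polyclonal mice. The series' title calls the monoclonal mice a nuclear transfer model, and the sample titles give a single line name for them. Receptor, Rag genotype and nuclear transfer origin therefore changed together between the 2 kinds of mice and cannot be told apart. No age, sex or number of animals was given, and no label ties the replicates to separate animals, so p-values rest on a spread between libraries that may be technical.

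Gimap proteins are GTP-binding proteins of lymphocytes. Several sit on the membranes of the endoplasmic reticulum, the Golgi or lysosomes, and their genes lie side by side in a single cluster. They are known for setting how long T cells survive: loss of Gimap5 in mice and rats causes a shortage of T cells, and in the BB rat it is part of the background of spontaneous autoimmune diabetes, a disease that NOD mice also develop. Regulatory T cells (Treg cells) are the CD4+ T cells that express the transcription factor Foxp3 and restrain immune responses.

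In the coordinates of the deposited table, on mouse build mm9, the 8 genes lay on chromosome 6 between positions 48597233 and 48720850, a stretch of 123.617 kb. Gimap8 came first (48597233 to 48610874, plus strand), then Gimap9 (48626134 to 48628703, plus), Gimap4 (48634577 to 48642061, plus) and Gimap6 (48651582 to 48658243, minus). Gimap7 (48668620 to 48674635, plus), Gimap1 (48689046 to 48693794, plus), Gimap5 (48696196 to 48704199, plus) and Gimap3 (48714463 to 48720850, minus) followed. All 8 had a promoter window in RefSeq on build GRCm38.p6, made of 250 bases before and 50 bases after the transcription start, with a second window for Gimap8. The windows of 3 members are printed 5′ to 3′ along the gene: Gimap7, which stood apart from the other members, Gimap4, the member that limma called lower in polyclonal Treg cells, and Gimap3, the member with the highest level. Capitals mark the RUNX motif TGTGGT, which on the opposite strand reads ACCACA, and the STAT motif TTCNNNGAA.
Gimap7, chr6:48718371-48718670 (+ strand): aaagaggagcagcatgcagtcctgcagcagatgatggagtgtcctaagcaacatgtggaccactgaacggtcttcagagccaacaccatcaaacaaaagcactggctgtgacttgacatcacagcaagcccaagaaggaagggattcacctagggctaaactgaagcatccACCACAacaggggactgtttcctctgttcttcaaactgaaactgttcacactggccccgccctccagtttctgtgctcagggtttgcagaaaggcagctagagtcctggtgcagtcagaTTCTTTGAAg
Gimap4, chr6:48684328-48684627 (+ strand): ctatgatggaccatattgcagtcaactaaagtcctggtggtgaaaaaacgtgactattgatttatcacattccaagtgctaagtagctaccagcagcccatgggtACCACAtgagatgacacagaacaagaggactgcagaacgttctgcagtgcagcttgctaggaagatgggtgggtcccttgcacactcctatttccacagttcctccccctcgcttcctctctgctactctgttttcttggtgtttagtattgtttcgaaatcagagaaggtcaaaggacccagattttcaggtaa
Gimap3, chr6:48770802-48771101 (minus strand): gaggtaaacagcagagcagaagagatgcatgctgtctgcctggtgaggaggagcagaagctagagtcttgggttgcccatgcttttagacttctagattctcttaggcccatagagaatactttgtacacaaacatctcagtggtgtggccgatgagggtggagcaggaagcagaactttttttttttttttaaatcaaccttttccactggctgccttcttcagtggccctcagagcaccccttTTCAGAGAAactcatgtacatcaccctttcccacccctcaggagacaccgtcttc
The RUNX letters, bound in T cells by Runx1 and Runx3, stood at position -79 from the start of Gimap7, at -145 for Gimap4 and at -95 for Gimap1, so that 3 of 9 member windows held them, against 16.8% of all 32851 RefSeq windows of the same length. The STAT letters stood at position 41 of Gimap7, at -5 of Gimap3, at -234 of Gimap6 and at -47 in 1 of the Gimap8 windows, which makes 4 of 9, against 8.3% of all windows. In Gimap7 the STAT match overlapped a match to the TCF/LEF motif TCAAAG, read on the minus strand. The ETS motif CGGAAG was in 4 of 9 member windows (16.9% of all windows), the KLF motif CCACCC in 5 (31.5%), TCAAAG in 2 (16%), the FOX motif TGTTTAC in 1 (3.65%), the Ikaros motif TGGGAA in 1 (25.6%) and the IRF motif, GAAA repeated after a gap of 2 bases, in 0 (3.44%). The windows of Gimap8 overlap, and the ETS match found in each is the same site, which the ETS count therefore includes in both windows. The members with the ETS letters were Gimap8, Gimap6 and Gimap1. In Gimap3 the Ikaros match overlapped 1 of the KLF matches. Both strands were searched for each motif, and a match describes the letters, not binding.

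Expression was measured as CPM, reads per 1000000 reads assigned to genes, and the libraries held 14076330 to 19722321 assigned reads. Each member had between 513 reads (Gimap5, monoclonal non-Treg replicate B) and 24577 reads (Gimap3, monoclonal Treg replicate B) in a library. The labels were checked with Foxp3, which had 2709 and 2667 CPM in the monoclonal Treg libraries, 405 and 319 CPM in the monoclonal non-Treg libraries, 2349 and 2281 CPM in the polyclonal Treg libraries and 81.9 and 84.2 CPM in the polyclonal non-Treg libraries. The 10 T cell markers (Cd3d, Cd3e, Cd3g, Cd247, Cd4, Cd2, Cd5, Cd28, Lck and Zap70) were detected in all groups. Markers of other cells differed between groups. The 7 dendritic cell markers summed to 344 to 394 CPM in the monoclonal Treg libraries, 1523 to 1782 CPM in the monoclonal non-Treg libraries, 6.44 to 11.7 CPM in polyclonal Treg (with Batf3 and Clec9a at 0) and 27.0 to 28.1 CPM in the polyclonal non-Treg libraries. The 8 B cell markers summed to 50.1 to 69.1, 248 to 308, 28.9 to 46.3 and 46.8 to 69.6 CPM in the same order of groups, and the 8 measured myeloid markers to 308 to 1047, 496 to 678, 34.9 to 66.3 and 36.3 to 64.0 CPM. Most of the B cell sum was Cd22, while Cd79a was at or below 1.93 CPM in each library, and the dendritic cell sum of the monoclonal non-Treg libraries was mostly Itgax (961 and 1234 CPM). In bulk libraries, fewer cells of a type and less RNA per cell cannot be told apart.

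Levels of different genes were compared per kb of transcript. Gimap3, which in the mouse is a close relative of Gimap5, had the highest level in each group, on average 630.2 CPM per kb in monoclonal Treg cells, 353 in monoclonal non-Treg cells, 515 in polyclonal Treg cells and 459 in polyclonal non-Treg cells. Gimap5 had the lowest, 36.3, 19.7, 35.5 and 29.3 CPM per kb in the same order of groups. Between these ends the order was Gimap6, Gimap4, Gimap7, Gimap8, Gimap9 and Gimap1 in monoclonal Treg cells, where only the libraries of Gimap9 and Gimap1 overlapped (139.7 and 137.8 CPM per kb). In monoclonal non-Treg cells Gimap7 stood below Gimap6, Gimap4, Gimap8, Gimap9 and Gimap1, and Gimap3 overlapped with Gimap6 (304 CPM per kb), as did Gimap9 with Gimap1 (73.4 and 73.1 CPM per kb). In polyclonal Treg cells the order was Gimap4, Gimap6, Gimap8, Gimap9, Gimap1 and Gimap7, with no overlap between neighbours. The polyclonal non-Treg order was the same, with Gimap3 and Gimap4 overlapping (459 and 448 CPM per kb). Gimap7 thus ranked just above Gimap5 in 3 of the 4 groups, and above Gimap8, Gimap9, Gimap1 and Gimap5 in monoclonal Treg cells.

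As a share of the summed Gimap level per kb, Gimap7 made up 8.98% and 9.31% in monoclonal Treg libraries, 3.01% and 3.06% in the monoclonal non-Treg libraries, 2.94% and 4.22% in polyclonal Treg and 2.31% and 2.17% in the polyclonal non-Treg libraries. The shares of Gimap4 averaged 17.5 ± 0.0644% in the monoclonal Treg libraries, 20.4 ± 0.455% in the monoclonal non-Treg libraries, 19.1 ± 0.00919% in polyclonal Treg and 24.5 ± 1.35% in polyclonal non-Treg cells (SD, n = 2 each). The shares of Gimap6 averaged 19.2 ± 1.39% in the monoclonal Treg libraries, 25.0 ± 0.362% in the monoclonal non-Treg libraries, 18.1 ± 0.782% in polyclonal Treg and 21.7 ± 0.169% in polyclonal non-Treg cells. Gimap4 and Gimap6 therefore held a smaller part of the Gimap transcripts in Treg than in non-Treg libraries of both kinds of mice, without overlap between the libraries. These shares do not depend on how the libraries are scaled.

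**Figure D1:**
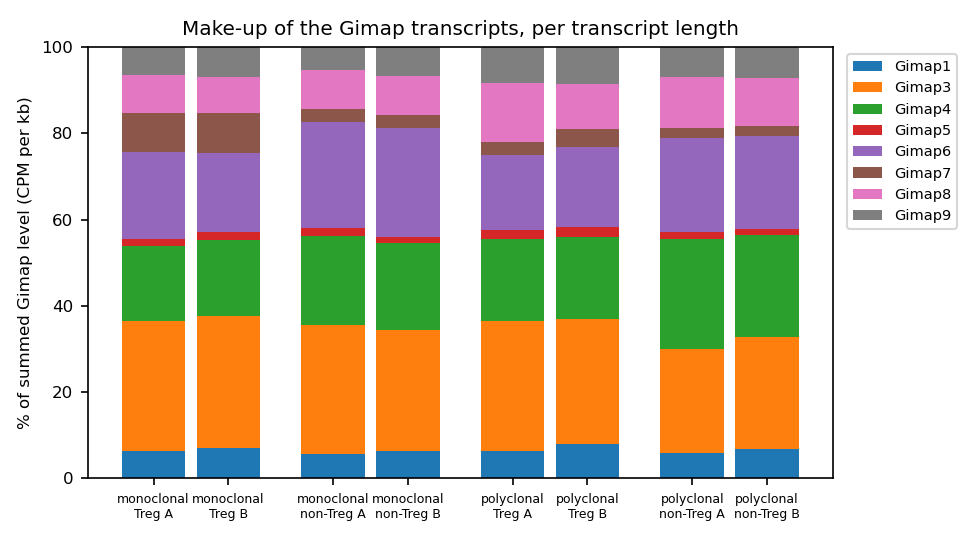
Stacked bars give each member's percentage of the summed Gimap level (CPM per kb of transcript) in each of the 8 libraries, monoclonal Treg at the left and polyclonal non-Treg at the right. Gimap7 takes 8.98% and 9.31% in the monoclonal Treg libraries and at most 4.22% in the other libraries.

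The first comparison asked how Foxp3-reporter-positive cells differed from reporter-negative cells in the monoclonal mice. Gimap7 showed the widest gap: it was 5.05-fold higher in the monoclonal Treg than in the monoclonal non-Treg cells. The other members were between 1.31-fold (Gimap6) and 1.90-fold (Gimap9) higher on the log2(CPM + 1) scale, so all 8 of 8 members were called higher by limma (adjusted p under 0.05 over all genes tested), against 10.8% of the 12881 genes tested, while after scaling to the CD3 genes 1 of 8, Gimap7, was called. The shares of all genes called, here and below, are from the fit without CD3 scaling, and none was counted with it. The median of the members was a log2 difference of 0.85, beside -0.02 over all genes tested. Both monoclonal Treg libraries lay above both monoclonal non-Treg libraries for each member, which was also so for 29.5% of all genes tested.

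Gimap7, a GTPase that, among the human proteins, can stimulate GTP hydrolysis by its relative GIMAP2, had 231 and 249 CPM in the monoclonal Treg libraries, against 49.5 and 43.9 CPM in monoclonal non-Treg libraries. Its log2 difference was 2.34 ± 0.17 (SE), with an adjusted p of 6.3e-07. Gimap3 had 1307 and 1388 CPM in monoclonal Treg libraries, against 829.6 and 681 CPM in monoclonal non-Treg libraries, a log2 difference of 0.84 ± 0.12 (limma adjusted p = 0.000153). Gimap5, needed for the survival of resting T cells, had 61.6 and 79.1 CPM in monoclonal Treg libraries, against 43.1 and 33.1 CPM in monoclonal non-Treg libraries, a log2 difference of 0.87 ± 0.19 (adjusted p = 0.00386). The 2 groups did not overlap for any of these genes, and replicate B of the monoclonal non-Treg cells was the lowest of all 8 libraries for Gimap3, Gimap5 and Gimap7.

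Gimap1, which mature T and B cells of mice need to persist, had 192 and 221 CPM in monoclonal Treg libraries, against 111 and 108 CPM in monoclonal non-Treg libraries, a log2 difference of 0.90 ± 0.14 (limma adjusted p = 0.000421). Gimap9 had 185 and 200.3 CPM in monoclonal Treg libraries, against 96.7 and 106 CPM in monoclonal non-Treg libraries, a log2 difference of 0.92 ± 0.12 (adjusted p = 0.000104). Gimap8, a large member with several GTP-binding domains, had 650.3 and 652 CPM in monoclonal Treg libraries, against 422 and 369.8 CPM in monoclonal non-Treg libraries, a log2 difference of 0.72 ± 0.14 (adjusted p = 0.00164). Each of these members was lower in the monoclonal non-Treg libraries than in any other library.

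The smallest gaps belonged to Gimap4, which speeds up the death of T cells once it has been triggered, and to Gimap6, which binds an ATG8 protein of the autophagy machinery. Gimap4 had 645 and 666 CPM in monoclonal Treg libraries, against 486 and 411 CPM in monoclonal non-Treg libraries, a log2 difference of 0.55 ± 0.12 (limma adjusted p = 0.00319). Gimap6 had 659 and 617 CPM in monoclonal Treg libraries, against 516 and 459.8 CPM in monoclonal non-Treg libraries, a log2 difference of 0.39 ± 0.11 (adjusted p = 0.0198). Neither pair of groups overlapped. Without monoclonal non-Treg replicate B, 5 of 8 members were called, and the adjusted p was 0.0811 for Gimap4, 0.0798 for Gimap5 and 0.225 for Gimap6. The call of Gimap6 was also lost without either monoclonal Treg library (0.105 without A, 0.0533 without B) or either polyclonal non-Treg library (0.0514 each), and with edgeR on the recovered reads (0.0781).

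**Figure D2:**
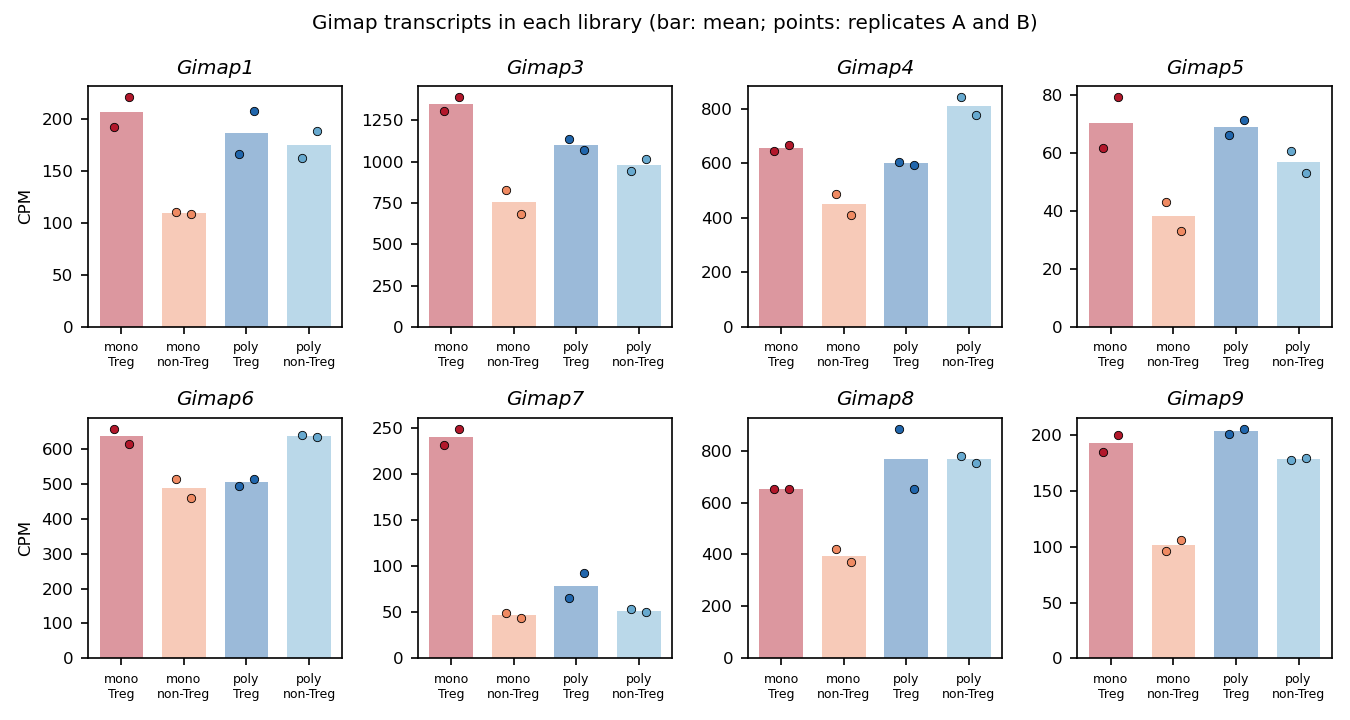
Each panel shows 1 Gimap gene in CPM, with points for replicates A and B and bars for their mean, for monoclonal (mono) Treg, monoclonal non-Treg, polyclonal (poly) Treg and polyclonal non-Treg libraries; each y axis starts at 0 and has its own range. Gimap7 lies between 231 and 249 CPM in the monoclonal Treg libraries and at 92.2 CPM or below in the others, while for most other members the monoclonal non-Treg libraries are the low ones.

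In polyclonal mice the members did not move as a block between Treg and non-Treg cells. Gimap4 was called lower in polyclonal Treg cells and was the only member called, 1 of 8, beside 3.28% of all genes tested called lower and 7.9% called in either direction. The median log2 difference of the members was 0.13, beside 0.00 over all genes tested. Gimap4 had 605 and 594 CPM in polyclonal Treg libraries, against 841 and 778 CPM in the polyclonal non-Treg libraries, a log2 difference of -0.43 ± 0.12 (limma adjusted p = 0.0330). That call was lost when any of the monoclonal libraries was left out (adjusted p between 0.0502 and 0.0511), without polyclonal non-Treg replicate A (0.354) or B (0.169), and in a fit of the polyclonal libraries alone (0.0852).

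Gimap6 had 495 and 516 CPM in polyclonal Treg libraries, against 641 and 635 CPM in the polyclonal non-Treg libraries. The groups did not overlap, but the log2 difference of -0.34 ± 0.11 missed the threshold in limma (adjusted p = 0.0893), while DESeq2 called it (0.00743). Gimap7 had 65.5 and 92.2 CPM in polyclonal Treg libraries, against 53.4 and 50.2 CPM in the polyclonal non-Treg libraries, with a log2 difference of 0.58 ± 0.17 (limma adjusted p = 0.0557). It was called in 4 of the 20 alternatives run for this comparison. Without polyclonal Treg replicate A, its log2 difference was 0.82 and it was called (0.00404), whereas leaving out replicate B of that group gave 0.33, which was not called (0.246). Both polyclonal Treg values of Gimap7 were below even the lower monoclonal Treg value of 231 CPM.

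The remaining members were close in the 2 polyclonal groups. Gimap3 averaged 1101 ± 47.3 CPM in polyclonal Treg and 981 ± 53.5 CPM in polyclonal non-Treg cells (SD, n = 2 each), and Gimap9 averaged 204 ± 3.04 and 179 ± 0.728 CPM in the same order. Gimap5 averaged 68.8 ± 3.66 CPM in polyclonal Treg and 56.8 ± 5.17 CPM in polyclonal non-Treg cells. For these 3 genes both polyclonal Treg libraries lay above both non-Treg libraries, as for 25% of all genes tested, yet the limma adjusted p was between 0.495 and 0.530. Gimap1 had 166.7 and 208 CPM in polyclonal Treg libraries, against 163 and 188 CPM in the polyclonal non-Treg libraries, and the groups overlapped. Gimap8 had 883 and 653 CPM in polyclonal Treg libraries, against 780.1 and 753 CPM in the polyclonal non-Treg libraries, so the 2 Treg replicates lay on either side of the non-Treg ones. Its log2 difference was -0.01 ± 0.14.

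Whether the Treg effect differed between the 2 kinds of mice was tested as the monoclonal log2 difference minus the polyclonal one. This difference of differences was called for 7 of 8 members, all higher, against 3.64% of the genes tested, with a median of 0.73 for the members and -0.03 over all genes, and for 1 member, Gimap7, after scaling to the CD3 genes. It was 1.76 ± 0.24 for Gimap7 (limma adjusted p = 0.000485), 0.98 ± 0.16 for Gimap4 (0.00217) and 0.72 ± 0.16 for Gimap6 (0.0104). For Gimap8, Gimap9, Gimap1 and Gimap3 it lay between 0.67 and 0.82, with limma adjusted p-values between 0.0167 and 0.0308. Gimap5, at 0.60 ± 0.27, was not called (0.189). Gimap4 differed in sign between the mice, higher in monoclonal Treg cells and lower in polyclonal Treg cells, each relative to its own non-Treg cells, but with CD3 scaling its monoclonal value was -0.14 and its polyclonal value -0.47, neither called.

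The count of 7 fell to 2 without monoclonal non-Treg replicate B, polyclonal non-Treg replicate A or polyclonal non-Treg replicate B, to 3 without monoclonal Treg replicate B, to 6 without monoclonal Treg replicate A and to 4 without monoclonal non-Treg replicate A. Gimap7 was called in each of the 19 alternatives run for this difference, with values between 1.12 and 2.004 and adjusted p-values of at most 0.0223.

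**Figure D3:**
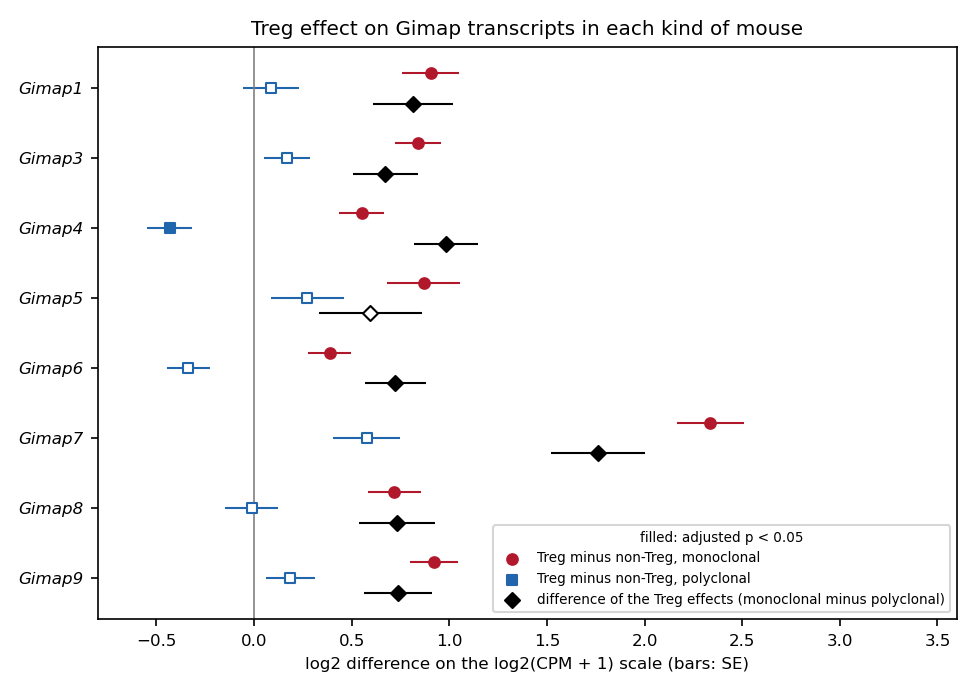
The x axis gives the log2 difference on the log2(CPM + 1) scale with its SE for each member: Treg minus non-Treg in monoclonal mice (circles), in polyclonal mice (squares) and the difference of both (diamonds), with filled symbols for an adjusted p under 0.05. Gimap7 lies farthest to the right at 2.34 in monoclonal mice, and Gimap4 lies at 0.55 in monoclonal and at -0.43 in polyclonal mice; scaled to Cd3d, Cd3e and Cd3g the monoclonal value of Gimap4 is -0.14.

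The same cell type was then set side by side in the 2 kinds of mice, with receptor, Rag genotype and origin changing together. Among non-Treg cells, 7 of 8 members were called lower in monoclonal than in polyclonal cells, against 7.35% of all genes tested, with a median of -0.62 for the members and -0.07 over all genes (0 of 8 after scaling to the CD3 genes). The sum of the 8 members was 2554 and 2213 CPM in monoclonal non-Treg libraries, against 3659.7 and 3655 CPM in the polyclonal non-Treg libraries. Gimap8 averaged 396 ± 37.0 CPM in monoclonal and 766 ± 19.3 CPM in polyclonal non-Treg cells (SD, n = 2 each), a log2 difference of -0.95 ± 0.14 (limma adjusted p = 0.000132). Gimap4 averaged 448 ± 53.0 CPM in monoclonal and 809 ± 44.5 CPM in polyclonal non-Treg cells, a log2 difference of -0.85 ± 0.12 (7.3e-05).

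Gimap9 fell by 0.82 ± 0.12 on the log2 scale in monoclonal non-Treg cells (limma adjusted p = 0.000203), Gimap1 by 0.67 ± 0.14 (0.00366) and Gimap5 by 0.57 ± 0.19 (0.0448). The log2 differences of Gimap6 and Gimap3 were -0.39 ± 0.11 (0.0228) and -0.38 ± 0.12 (0.0343). The calls of Gimap3, Gimap5 and Gimap6 were lost without polyclonal non-Treg replicate A, without monoclonal non-Treg replicate B and with edgeR, which left 4 in each case, and that of Gimap1 was lost as well without polyclonal non-Treg replicate B, which left 3. Without monoclonal non-Treg replicate A the call of Gimap6 was lost (0.0505), and without monoclonal Treg replicate A or B that of Gimap3 (0.0545 and 0.0549). Gimap7 was the member not called (-0.15 ± 0.17, adjusted p = 0.626), with 49.5 and 43.9 CPM in monoclonal non-Treg libraries, against 53.4 and 50.2 CPM in the polyclonal non-Treg libraries.

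Among Treg cells, 2 of 8 members were called between the mice, Gimap7 and Gimap6, both higher in monoclonal Treg cells, against 12.1% of genes called higher and 24.2% called in either direction. Gimap7 averaged 239.9 ± 12.5 CPM in monoclonal and 78.8 ± 18.9 CPM in polyclonal Treg cells (SD, n = 2 each), a log2 difference of 1.61 ± 0.17 (limma adjusted p = 9.9e-06) or 3.06-fold. Gimap6 averaged 638 ± 29.5 CPM in monoclonal and 505 ± 15.2 CPM in polyclonal Treg cells, a log2 difference of 0.33 ± 0.11 (0.0412). The call of Gimap6 was lost without any 1 of 6 libraries, the 2 polyclonal Treg libraries being the exceptions (0.0633 to 0.172), and it was lost with the replicate letter as a block (0.0559). The other members had log2 differences between -0.22 (Gimap8) and 0.29 (Gimap3). The sum of the members was 3930.2 and 4071 CPM in monoclonal Treg libraries, against 3617 and 3408 CPM in polyclonal Treg libraries.

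The low Gimap values of the monoclonal non-Treg libraries came together with low values of Cd3e and Cd3g and a high sum of dendritic cell markers. Cd3d, Cd3e and Cd3g, subunits of the CD3 part of the receptor, summed to 1654 and 1695 CPM in the monoclonal Treg libraries, 1126 and 959 CPM in the monoclonal non-Treg libraries, 1289 and 1858 CPM in the polyclonal Treg libraries and 1479 and 1534 CPM in the polyclonal non-Treg libraries. The ratio of the summed Gimap genes to this sum was 2.38 and 2.402 in the monoclonal Treg libraries, 2.27 and 2.31 in the monoclonal non-Treg libraries, 2.81 and 1.83 in the polyclonal Treg libraries and 2.47 and 2.38 in the polyclonal non-Treg libraries. On this ratio the group means lay between 2.29 (monoclonal non-Treg) and 2.43 (polyclonal non-Treg), and the polyclonal Treg replicates spanned the range of all 8 libraries. Relative to all 10 T cell markers, the Gimap sum was 0.764 and 0.784 in monoclonal Treg libraries and between 0.476 and 0.618 in the other 6 libraries. Cd3d, although part of the CD3 sum, was not called between the monoclonal groups, at a log2 difference of 0.25 (limma adjusted p = 0.433). Lck (0.20) and Zap70 (-0.02) were not called there either. Among the 10 T cell markers, 5 were called higher in the Treg cells of these mice, Cd3e and Cd3g included, and 1 lower. Cd247 and Cd4 also did not follow Cd3e and Cd3g. Cd247, also of the receptor complex, averaged 324 ± 18.8 CPM in the monoclonal Treg libraries and 308 ± 51.1 CPM in the monoclonal non-Treg libraries and was not called. Cd4, the co-receptor, averaged 809 ± 25.0 CPM in the monoclonal Treg libraries and 1308 ± 72.6 CPM in the monoclonal non-Treg libraries (SD, n = 2 each) and was called lower in the Treg cells. Of the 10 T cell markers, 7 were called lower in the monoclonal than in the polyclonal non-Treg cells, against 7.35% of all genes tested. The 7 dendritic cell markers had a median log2 difference of 4.56 there, beside -0.07 over all genes tested, with Xcr1 at -0.05. Between the Treg groups, 0 Gimap genes and 5 of the 10 T cell markers were called lower in monoclonal cells. In the same comparison 6 of the 7 dendritic cell markers were called higher, against 12.1% of all genes called higher and 24.2% called in either direction. The dendritic cell markers summed to 344 to 394 CPM in the monoclonal Treg libraries and to 1523 to 1782 CPM in the monoclonal non-Treg libraries. The part of the dendritic cell transcripts in the Gimap differences was not tested.

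Scaled to the CD3 genes instead of the total, the median over all genes moved by -0.64 in the monoclonal Treg comparison. It moved by -0.60 in the difference of differences and by 0.50 in the non-Treg comparison between mice. Without this scaling, Cd3e and Cd3g were themselves called higher in monoclonal Treg cells (0.79 and 0.77) and in the difference of differences (0.62 and 0.82). Cd3d was called in neither (0.25 and 0.36). Scaling to the CD3 genes takes out any difference that the members share with their sum, so a lost call does not show that a member was unchanged. How many of all genes were called under this scaling was not counted. Then 1 of 8 members was called higher in the monoclonal Treg than in the monoclonal non-Treg cells, Gimap7, at a log2 difference of 1.66 (limma adjusted p = 3.6e-05), while Gimap4 and Gimap6 turned to -0.14 and -0.30, both not called. Between the non-Treg groups 0 of 8 members were called by limma, and 0 had an unadjusted p under 0.05; without CD3 scaling, edgeR with its TMM factors called 4 and DESeq2 with its size factors called 6. There Gimap3, Gimap6 and Gimap7 turned to 0.15, 0.15 and 0.38 under the CD3 scaling. The difference of differences kept 1 call, Gimap7, at 1.12 (0.0223). The CD3 factors of the polyclonal Treg libraries were 0.908 (A) and 1.31 (B), a gap between replicates that enters each test under this scaling. A scaling to the 10 T cell markers was chosen after seeing the data. It moved the median over all genes by -0.24 in the monoclonal Treg comparison and by 0.59 between the non-Treg groups. How many of all genes it called was not counted. Under it, 5 members were called higher in monoclonal Treg cells. Gimap7 was the only member called between the non-Treg groups, higher by 0.47 in monoclonal cells (limma adjusted p = 0.0320), less than the shift of 0.59. Gimap7 was called higher in monoclonal Treg cells under each of the 20 alternatives, against monoclonal non-Treg cells (1.66 to 2.42) and against polyclonal Treg cells (1.37 to 1.93).

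**Figure D4:**
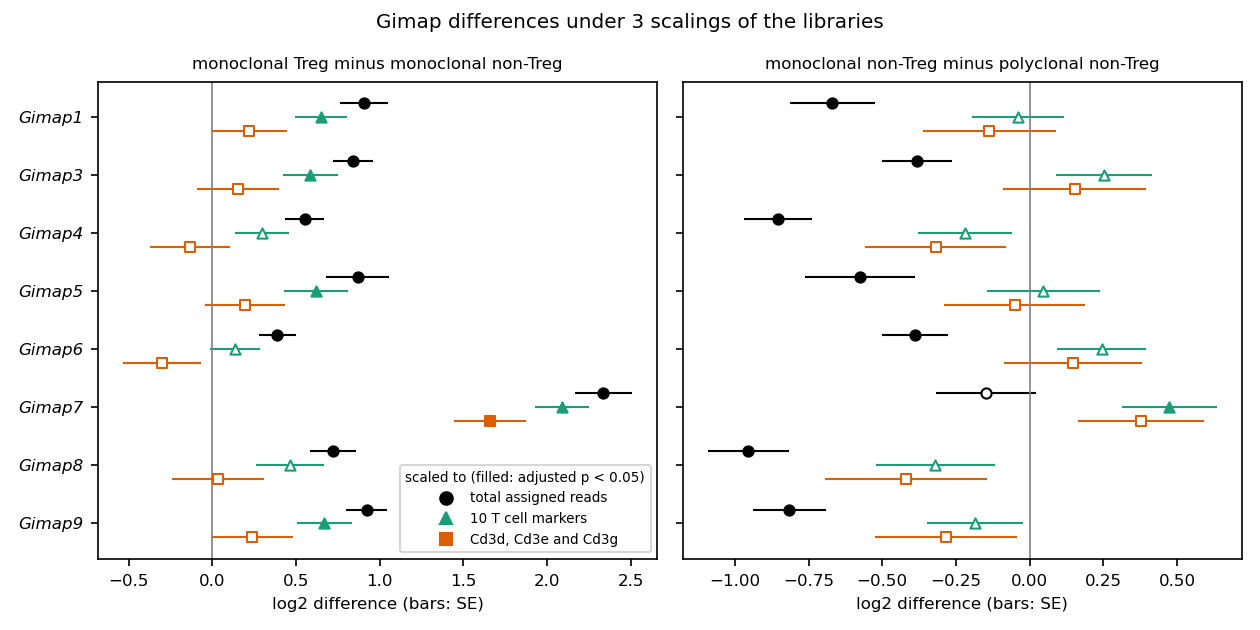
The log2 difference of each member and its SE are drawn after scaling the libraries to all assigned reads (circles), to 10 T cell markers (triangles) or to Cd3d, Cd3e and Cd3g (squares), with filled symbols for an adjusted p under 0.05. In monoclonal Treg minus monoclonal non-Treg cells Gimap7 stays filled at 2.34, 2.09 and 1.66, and under the CD3 scaling no other member is filled in either panel.

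The profiles of the members over the 8 libraries were compared after centring each on its own mean, with the root-mean-square (RMS) difference in log2 units. Gimap3, Gimap1 and Gimap5 lay closest to the mean of the other members (RMS 0.109, 0.125 and 0.154), followed by Gimap9 (0.192), Gimap4 (0.284), Gimap6 (0.292) and Gimap8 (0.299), and Gimap7 lay farthest (0.798). Gimap4 and Gimap6 were each other's nearest member (0.188), but among all 6192 genes ranked Gimap6 was number 98 in nearness to Gimap4, and Gimap4 number 747 in nearness to Gimap6. Among 6185 other genes whose mean log2 level reached 5, the median RMS difference from the mean Gimap profile was 0.395. The 8 nearest genes were Wrnip1 (0.0726), Snx2 (0.0977), Adcy3 (0.0989), Slc1a5 (0.101), Lats2 (0.105), Ide (0.106), Clec2d (0.107) and Ap5m1 (0.109). Wrnip1 had 88.7 and 94.0 CPM in the monoclonal Treg libraries, 53.2 and 43.3 CPM in the monoclonal non-Treg libraries, 78.4 and 79.1 CPM in the polyclonal Treg libraries and 66.3 and 67.1 CPM in the polyclonal non-Treg libraries, with the low point in monoclonal non-Treg cells that most members share.

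Gene by gene, and chosen after their values were seen, the nearest profile to Gimap1 was that of Cd3e (RMS 0.0728) and the nearest to Gimap7 that of Gata3 (0.146). Gata3, a transcription factor of T helper and Treg cells, had 464 and 481 CPM in the monoclonal Treg libraries, 124 and 103 CPM in the monoclonal non-Treg libraries, 149 and 168 CPM in the polyclonal Treg libraries and 108 and 119 CPM in the polyclonal non-Treg libraries. Like Gimap7, it was high in the monoclonal Treg libraries. These likenesses rest on 8 libraries in 4 groups and are descriptions.

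Of 35 other genes of the table within 1 Mb of the Gimap cluster, 26 passed the filter on low values. In monoclonal mice 3 of them were called higher in monoclonal Treg cells (Pdia4, Zfp862-ps and Lrrc61) and 3 lower (Sspo, Tmem176a and Tmem176b), which is near the share over all genes tested, 10.8% higher and 13.6% lower, and their median log2 difference was -0.07. In the difference of differences, 0 of 26 were called higher and 1 lower (Sspo, -3.78 ± 0.50), against 5.56% of all genes called lower. Tmem176b, known from dendritic and other myeloid cells, had 57.4 and 41.6 CPM in the monoclonal Treg libraries, 183 and 194 CPM in the monoclonal non-Treg libraries, 1.92 and 3.09 CPM in the polyclonal Treg libraries and 13.5 and 10.5 CPM in the polyclonal non-Treg libraries. It was thus highest in the monoclonal non-Treg libraries, as was the sum of the dendritic cell markers, although Xcr1 among them was not (1.05 and 4.52 CPM in monoclonal Treg, against 1.72 and 0 CPM in monoclonal non-Treg libraries).

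**Figure D5:**
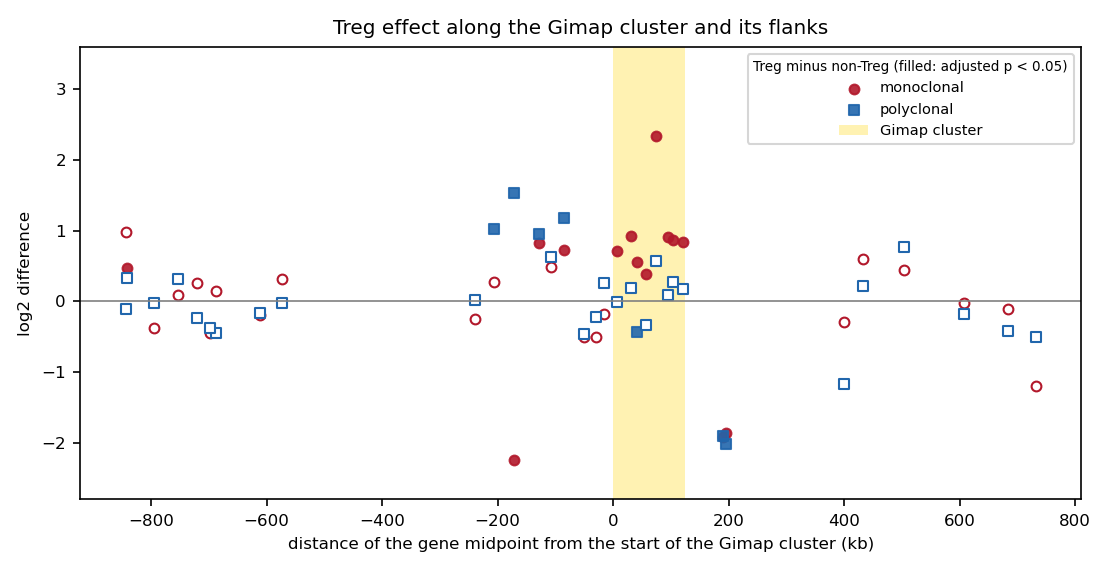
Each symbol is a gene placed by the distance of its midpoint from the start of the Gimap cluster (x axis, kb), with its Treg minus non-Treg log2 difference on the y axis in monoclonal (circles) and polyclonal (squares) mice and filled symbols for an adjusted p under 0.05. Inside the shaded cluster all 8 circles are filled and above 0, with Gimap7 at 2.34, while 6 of the 26 flanking genes have filled circles, 3 above and 3 below 0; scaled to the CD3 genes only Gimap7 of the members is called.

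Other genes of T cell survival and traffic were counted from lists drawn up with earlier results known. Over all genes tested, 10.8% were called higher and 13.6% lower in the monoclonal Treg comparison, and 4.63% higher and 3.28% lower in the polyclonal one, and no list was tested against these shares or between the mice. Of 11 genes of naive and recirculating T cells, 2 were called higher and 7 lower in the monoclonal Treg than in the monoclonal non-Treg cells, and 0 higher and 7 lower in the polyclonal comparison. Il7r, the receptor chain for the survival cytokine interleukin-7, had 1212 and 1293 CPM in the monoclonal Treg libraries, 511 and 464 CPM in the monoclonal non-Treg libraries, 212 and 180.4 CPM in the polyclonal Treg libraries and 792 and 903 CPM in the polyclonal non-Treg libraries. It was higher in monoclonal Treg cells by 1.36 ± 0.12 and lower in polyclonal Treg cells by a log2 difference of -2.11 ± 0.12, and the difference of 3.47 ± 0.17 was called (limma adjusted p = 1.4e-07). S1pr1, which lets T cells leave lymphoid organs, also differed in sign, at 0.51 ± 0.11 in monoclonal and -0.52 ± 0.11 in polyclonal Treg cells, the monoclonal value being smaller than the shift of -0.64 that CD3 scaling gives.

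Of 10 Bcl2 family genes, the regulators of cell death that some Gimap proteins bind, 2 were called higher and 2 lower in monoclonal Treg cells, and 4 higher and 0 lower in polyclonal Treg cells. Bcl2, which keeps T cells alive, had 97.6 and 93.2 CPM in the monoclonal Treg libraries, 309.9 and 263 CPM in the monoclonal non-Treg libraries, 497 and 385 CPM in the polyclonal Treg libraries and 225 and 269.9 CPM in the polyclonal non-Treg libraries. It was lowest in the monoclonal Treg libraries, where Gimap7 was highest, with log2 differences of -1.57 ± 0.15 in monoclonal and 0.83 ± 0.15 in polyclonal mice. Bcl2l1, which encodes Bcl-xL, was called higher in Treg cells of both, by 1.85 ± 0.21 in monoclonal and 1.48 ± 0.21 in polyclonal mice. Of the 5 ATG8 family genes, 1 was called over both comparisons, higher in polyclonal Treg cells.

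A second family of GTPases, the 16 interferon-inducible ones, gave 9 genes called higher and 1 lower in monoclonal Treg cells, and 7 higher and 0 lower in polyclonal Treg cells, with medians of 0.86 and 0.49. Of the 16, 1 was called in the difference of differences, Gbp7, at 1.34 ± 0.25, beside 3.64% of all genes tested called higher. Gbp7, a guanylate-binding protein, had 965 and 743 CPM in monoclonal Treg libraries, against 236 and 163 CPM in monoclonal non-Treg libraries.

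Some of the counted reads could belong to more than 1 gene. In GENCODE transcripts on GRCm38, Gimap3 and Gimap5 shared 190 stretches of 50 bases, the read length, which is 7.52% of those in Gimap3 and 9.98% of those in Gimap5. Gm28053 overlaps Gimap7, Gimap1 and Gimap5 on the same strand and shares 2.37%, 8.48% and 5.52% of their stretches. Gimap1os lies opposite Gimap1 and matches 6.09% of its stretches, and whether counting used the strand was not given, so values of Gimap1, Gimap3 and Gimap5 carry that uncertainty. For Gimap4, Gimap8 and Gimap9 the share was 0% on either strand.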

How the data were processed

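Spleen CD4+ T cells were sorted by Foxp3-GFP, poly-dT selected RNA was sequenced with strand kept as single-end reads of 50 bp on a HiSeq2500, per the labels' protocols. For the upstream steps, the submitters' processing notes list STAR (2.4.1a), HOMER (4.7), Trimmomatic (0.33), CASAVA (1.8.2), FastQC (0.10.1), edgeR without a version and the build mm9, with no roles. The authors deposited 1 table of CPM values, normalized to 1000000 reads assigned to genes; 100% of values were whole multiples of 1 read within 0.01 read, so reads were recovered. The treatment of reads that match more than 1 gene, and of strand in counting, is not given in these sources.

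Differences were tested in R 4.3.3 with limma 3.58.1, trend and robust options on, after log2(CPM + 1), a scale that shrinks changes at low levels. The filter asked for 1 CPM or more in 2 or more libraries and passed 12881 genes. A mean was fitted for each of 4 groups over all 8 libraries, with 4 residual degrees of freedom, and 2-sided p-values were adjusted by Benjamini-Hochberg over all tested genes at a threshold of 0.05. Alternatives were other pseudocounts, filters and scalings, edgeR 4.0.16 quasi-likelihood tests and DESeq2 1.42.0 on recovered reads, a replicate block, a fit of only the libraries compared, and leaving out each library. The procedure was tested on simulated data. All 8 members were named in each comparison; other genes came from written lists, from the flanks of the cluster and from the 8 nearest profiles, and Gata3 and Cd3e were added after their values were seen. The members and lists were chosen with earlier results of these data known. Promoter sequences are from RefSeq (GRCm38.p6) and were read directly; positions of genes are those of the deposited table.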

Additional observations from a re-analysis of the deposited data

Results flagged for a closer look

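For 7 of the 8 members the difference between the Treg effect in monoclonal mice and that in polyclonal mice passed the test of the difference itself (limma, an interaction over all 8 libraries, adjusted over 12881 genes). On the log2 scale, monoclonal minus polyclonal, it was 1.76 for Gimap7, 0.98 for Gimap4, 0.82 for Gimap1, 0.74 for Gimap9, 0.73 for Gimap8, 0.72 for Gimap6 and 0.67 for Gimap3. Scaled to the CD3 genes, the call of Gimap7 was kept (1.12) and the other 6 were lost. Without that scaling, Cd3e and Cd3g were themselves called in this difference (0.62 and 0.82), so the scaling removes what the members share with them. Cd3d was not called in it (0.36).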

How the results depend on the processing

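Over 792 values of single members under alternatives, 649 kept their direction and their side of the threshold. With the direction kept, 110 lost the call and 12 gained one. The other 21 changed sign, and calls lost or gained among them are not in those counts. The count of members called in monoclonal Treg minus monoclonal non-Treg cells (8) was 1 with CD3 scaling, 5 with T cell marker scaling and 5 to 8 when 1 library was left out. In polyclonal Treg minus polyclonal non-Treg cells (1) it was 0 with no filter (3 members had an unadjusted p under 0.05), 2 with a filter of 5 CPM, 0 with CD3 scaling (1 under 0.05), 1 with edgeR, 3 with DESeq2, 0 in a fit of only these libraries (3 under 0.05) and 0 to 2 when 1 was left out. For the difference of both (7) it was 4 with no filter, 1 with CD3 scaling, 1 with T cell marker scaling and 2 to 7 when 1 was left out. In monoclonal minus polyclonal Treg cells (2) it was 1 with CD3 scaling, 4 with T cell marker scaling, 1 in a fit of only these libraries, 1 with the replicate block and 1 to 3 when 1 was left out. In monoclonal minus polyclonal non-Treg cells (7) it was 4 with TMM, 4 with DESeq2 size factors, 4 with edgeR, 0 with CD3 scaling, 1 with T cell marker scaling and 3 to 7 when 1 was left out. The causes were not tested.

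With CD3 scaling the signs turned for Gimap4 (-0.14) and Gimap6 (-0.30) in the monoclonal comparison, for Gimap5 in the difference (-0.040) and between Treg cells (-0.091), and for Gimap3 (0.15), Gimap6 (0.15) and Gimap7 (0.38) between non-Treg cells. With T cell marker scaling they turned for Gimap8 in the polyclonal comparison (0.042), for Gimap8 (0.10) and Gimap9 (0.24) between Treg cells, and for Gimap3 (0.25), Gimap5 (0.046), Gimap6 (0.24) and Gimap7 (0.47) between non-Treg cells. Leaving out 1 library gave ranges that crossed 0 in the polyclonal comparison for Gimap1 (-0.070 to 0.25) and Gimap8 (-0.23 to 0.20), and between Treg cells for Gimap1 (-0.012 to 0.30) and Gimap5 (-0.16 to 0.20); none of these values was called.

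With the replicate letter as a block, the 5 counts were 8, 1, 7, 1 and 6. No label says whether the letters pair libraries. Over the genes tested, the correlation of A minus B differences between groups lay between -0.09 and 0.10. Such a correlation cannot settle the pairing, because genes without a shared difference can hide one in others. With 2 libraries a group, small differences cannot be resolved.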
